A study of Mus musculus with 6 samples.

Results

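The 39 genes described here are those whose symbol starts with Nduf, the mouse names for subunits and assembly factors of respiratory complex I. They were taken from 12394 genes on an Affymetrix mouse array by symbol alone, from probe sets annotated to a single gene. Of the 39, 34 are named as subunits and 5 as assembly factors (Ndufaf1, Ndufaf3, Ndufaf4, Ndufaf5 and Ndufaf7). Where a gene had several probe sets, the one with the highest mean over the 6 arrays stood for it. Ndufs6, Ndufa11, Ndufb4 and Ndufa4l2 were among the genes not analysed here.

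The tissue was subcutaneous white fat, titled IWAT in the labels, from mice aged 8 weeks on a mixed C57BL6 and 129 background. The 2 groups were YY1bKO (YY1flox/flox with Ucp1Cre, 3 arrays) and control (YY1flox/flox without Cre, 3 arrays), and all mice had a high fat diet for 2 weeks. The Ucp1 promoter drives Cre mainly in thermogenic fat cells, so most cells of a white depot are not targeted, and no group carried Cre alone. The labels number the replicates but do not say that each came from its own mouse, so p-values measure only the spread between these arrays. Array medians lay between 123.15 and 130.35 intensity units, and Spearman correlations between arrays across all probe sets were 0.957 to 0.994.

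Complex I is the entry point of the respiratory chain. Its hydrophilic arm oxidises NADH in the N module and hands the electrons to ubiquinone in the Q module, and its membrane arm pumps protons. Assembly factors help to build these modules and are absent from the finished enzyme. Brown and beige fat cells hold many mitochondria and burn fuel through this chain to make heat. YY1 is a zinc finger transcription factor that binds many promoters, and in mouse muscle cells it is known to act on mitochondrial genes together with the coactivator encoded by Ppargc1a.

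Yy1 itself measured 10.13, 10.41 and 10.20 in the YY1bKO arrays, against 10.33, 10.52 and 10.62 in the control arrays, in log2(intensity + 1). The groups overlapped, with a difference of -0.24 ± 0.12 (SE; limma adjusted p = 0.574). The sources used here do not say whether this probe set lies within the floxed part of the gene, so its level may not check the deletion. Ucp1, the heat-producing proton carrier of thermogenic fat cells, measured 10.65, 11.01 and 10.91 in YY1bKO against 5.71, 5.67 and 5.43 in control, a difference of 5.25. All differences below are YY1bKO minus control on this log2 scale.

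Because the genotype concerns a transcription factor, promoters of the Nduf genes were searched for the letters of 4 motifs, on both strands. RefSeq promoters of assembly GRCm38.p6, 300 bases each from 250 before to 50 after the start, were at hand for 36 of the 39 genes. The YY1 motif AAGATGGCG occurred in 4 of these 36 genes (11.1%), against 1.64% of 27025 genes with a promoter in the same table. All 4 matches lay within the 50 bases after the start, and they are shown here, motif in capitals with its flanks, 5′ to 3′ along the gene.
Ndufs4 (chr13:114388045-114388069, minus strand): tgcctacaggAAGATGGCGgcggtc
Ndufa9 (chr6:126849097-126849125, minus strand): attgtgggagAAGATGGCGgccgccgtcc
Ndufs7 (chr10:80249463-80249491, plus strand): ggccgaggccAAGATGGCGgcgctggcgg
Ndufc1 (chr3:51408915-51408943, minus strand): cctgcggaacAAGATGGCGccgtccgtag
The first motif base was 36 bases from the start in Ndufs4, 30 in Ndufa9, 25 in Ndufs7 and 23 in Ndufc1, counting the first transcribed base as 1. The ETS family motif CCGGAAG was present in 5 of 36 genes (13.9%), against 9.93% of all genes. It is shown for Ndufaf1, the gene with the largest difference below, and for the core subunit gene Ndufs3, whose promoter holds it once in each orientation.
Ndufaf1 (chr2:119662836-119662862, minus strand): gggaccacaaCCGGAAGcgtggcgaac
Ndufs3 (chr2:90904732-90904758, minus strand): ccgcgtccgcCCGGAAGaagagtcact
Ndufs3 (chr2:90904704-90904730, minus strand): cacatttccaCTTCCGGtccgtgccct
The NRF1 motif GCGCATGCG was found in 3 genes (8.33%; Ndufa8, Ndufaf4 and Ndufaf5), against 1.95% of all genes. The ERR motif CAAGGTCA was found in Ndufs5 alone (2.78%), against 1.76% of all genes. A match describes these letters and is no evidence of binding. The 4 genes with the YY1 motif differed between genotypes by 0.19 to 0.38 (median 0.31), and the median of the other members with a promoter was also 0.31.

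All 39 Nduf genes had a higher mean in YY1bKO fat, whereas 51% of all genes tested did. The median difference was 0.32 over the 39 genes, or 1.25-fold, beside a median of 0.0046 over all genes. For 33 of the 39 genes the difference was between 0.2 and 0.5, so the differences were small and similar in size. None of the 39 passed the threshold of adjusted p 0.05 (limma, Benjamini-Hochberg over all genes), and 0.0323% of all genes, or 4 genes, did. Their adjusted p-values ran from 0.184 for Ndufaf1 to 0.898 for Ndufb8. At an unadjusted p under 0.05, 26 of the 39 were higher in YY1bKO and 0 were lower, where 8.45% of all genes were called higher at that level. In 27 of the 39 genes every YY1bKO array lay above every control array, which held for 11.5% of all genes. By probe set intensity, which does not rank transcripts of different genes, 34 of the 39 lay at or above the 75th percentile of all genes. Among the 3099 genes at that level the median difference was 0.06, and 14.3% were higher at an unadjusted p under 0.05.

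**Figure D1:**
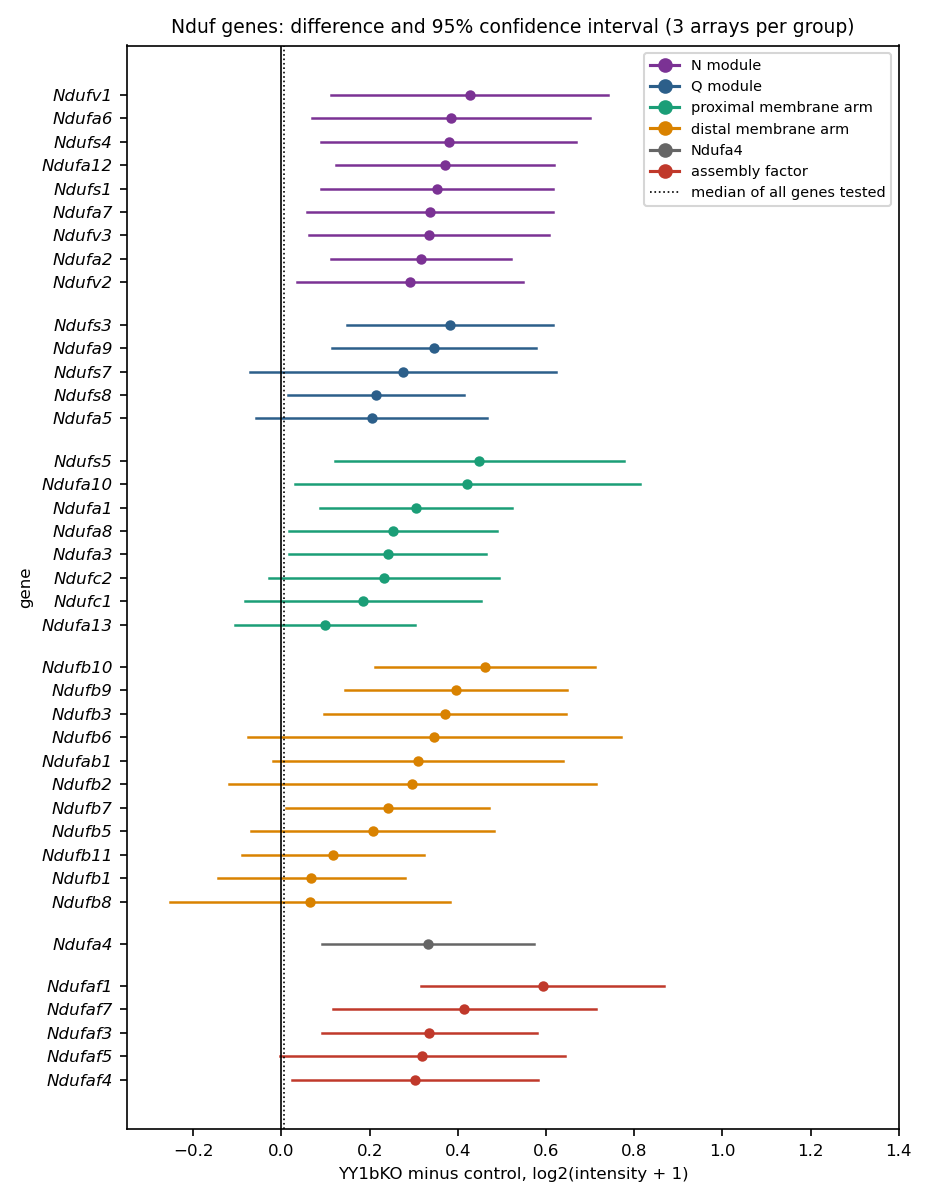
Difference between YY1bKO and control for each of the 39 Nduf genes (points; log2(intensity + 1)) with its 95% confidence interval (lines), grouped by place in complex I, 3 arrays per group. All 39 points lie right of 0, and 26 of the intervals do.

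**Figure D2:**
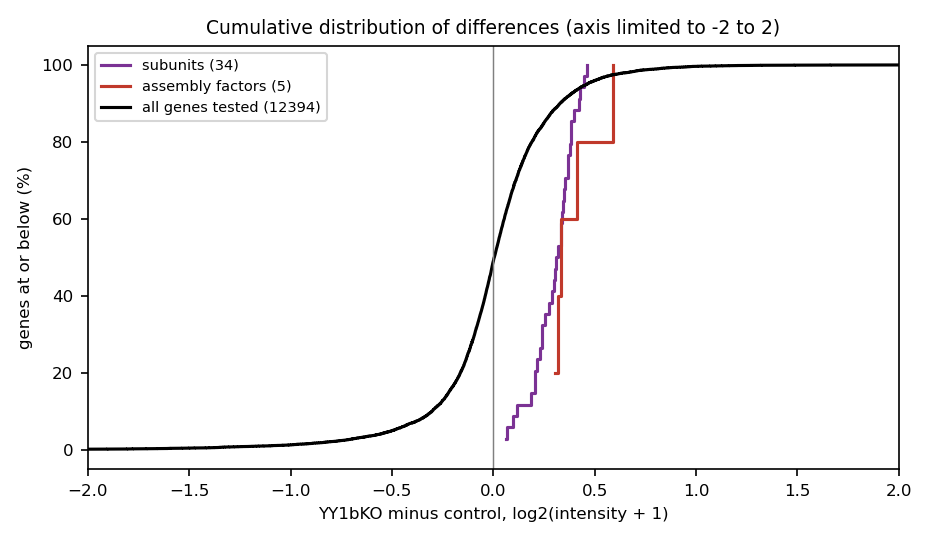
Cumulative share of genes (vertical axis, percent) at or below each difference (horizontal axis, log2(intensity + 1), YY1bKO minus control) for the 34 subunits, the 5 assembly factors and all 12394 genes. The subunit and assembly factor curves start right of 0, where 51% of all genes lie.

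The N module, where NADH is oxidised, was the most uniform. In all 9 of its measured genes the YY1bKO arrays lay above the control arrays with an unadjusted p under 0.05, and the median difference was 0.35. Over all genes, 8.45% were higher at that level, and in 11.5% every YY1bKO array lay above every control array. Ndufv1, which carries the flavin and the NADH site, measured 11.80, 11.62 and 11.76 in YY1bKO against 11.25, 11.52 and 11.13 in control. The difference was 0.43 ± 0.13 (SE; adjusted p = 0.340), and all control arrays lay below the lowest YY1bKO array. Its partner Ndufv2, an iron-sulphur protein, measured 11.83, 11.70 and 11.73 in YY1bKO against 11.47, 11.59 and 11.31 in control. The difference was 0.29 ± 0.11 (adjusted p = 0.426), again without overlap. Ndufs1, the large iron-sulphur subunit of this module, was tight within YY1bKO at 10.48, 10.44 and 10.42, against 10.19, 10.18 and 9.91 in control. It differed by 0.35 ± 0.11 (adjusted p = 0.350).

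The accessory subunits of the N module behaved alike. Ndufa2, a small thioredoxin-like protein, measured 12.03, 12.01 and 12.04 in YY1bKO against 11.77, 11.63 and 11.73 in control, a difference of 0.32 ± 0.08 (SE; adjusted p = 0.295). The YY1bKO arrays were nearly identical. Ndufa12, which sits at the junction towards the Q module, measured 12.47, 12.36 and 12.35 in YY1bKO against 12.17, 11.99 and 11.92 in control. It differed by 0.37 ± 0.10 (adjusted p = 0.310). The other 4 genes of the module, Ndufs4, Ndufv3, Ndufa6 and Ndufa7, had differences of 0.34 to 0.39. Mutations of Ndufs4 are a known cause of complex I deficiency in mice and people.

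In the Q module, which reduces ubiquinone, all 5 measured genes were higher, with a median difference of 0.28. Of these, 3 had an unadjusted p under 0.05, where 8.45% of all genes were higher at that level. Ndufs3, a core subunit of the hydrophilic arm, measured 11.69, 11.62 and 11.73 in YY1bKO against 11.37, 11.35 and 11.17 in control. It differed by 0.38 ± 0.10 (SE; adjusted p = 0.279), the second smallest adjusted p of any subunit, after Ndufb10. Ndufa9, an accessory subunit related to short-chain dehydrogenases, measured 11.58, 11.48 and 11.54 in YY1bKO against 11.29, 11.20 and 11.07 in control, a difference of 0.35 ± 0.10 (adjusted p = 0.310). Both genes were apart in all arrays. Ndufs8, an iron-sulphur core subunit, measured 11.67, 11.59 and 11.69 in YY1bKO against 11.42, 11.43 and 11.46 in control. By this probe set its difference of 0.21 ± 0.08 was the smallest of the 6 core subunits measured (adjusted p = 0.452). That rank depends on the probe set, which ends in _x_at and had a mean level of 11.54. Another Ndufs8 probe set, at a mean level of 11.43, gave 0.42 (limma unadjusted p = 0.00568).

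Ndufs7, which holds the iron-sulphur cluster next to ubiquinone, was the exception among the core subunits. It measured 11.31, 11.29 and 11.26 in YY1bKO, against 10.84, 11.31 and 10.88 in control. Control replicate 2 was as high as the YY1bKO arrays, so the groups overlapped, and the difference of 0.28 ± 0.14 (SE) had an unadjusted p of 0.10 (adjusted p = 0.586). The exact 2-sided permutation test over arrays gave p = 0.3, where 0.1 is the smallest that 3 against 3 arrays allow. Without control replicate 2 the difference was 0.42, at an unadjusted p under 0.05 (adjusted p = 0.293). Leaving out the highest control array could only raise the difference, so this value is no support for it. The difference was 0.19 without control replicate 1 and 0.21 without control replicate 3. Ndufa5, the remaining Q module gene, differed by 0.20 with overlapping groups.

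In the proximal membrane arm all 8 measured genes were higher, 5 at an unadjusted p under 0.05, with a median difference of 0.25. Over all genes, 8.45% were higher at that level. Ndufa1, a small membrane subunit needed to assemble the enzyme, measured 12.97, 12.83 and 12.93 in YY1bKO against 12.68, 12.57 and 12.57 in control, a difference of 0.30 ± 0.09 (SE; adjusted p = 0.329). Ndufs5 had the largest difference here (0.45) and Ndufa13, also known as GRIM-19, the smallest (0.099). The distal membrane arm was the most mixed: all 11 measured genes were higher, but only 4 at an unadjusted p under 0.05, with a median difference of 0.30. Ndufb10, an accessory subunit with disulphide bonds, measured 10.83, 10.68 and 10.73 in YY1bKO against 10.22, 10.43 and 10.21 in control. Its difference of 0.46 ± 0.10 was the largest of any subunit (adjusted p = 0.247). Ndufb9, of the LYR protein family, measured 12.50, 12.35 and 12.43 in YY1bKO against 12.11, 12.09 and 11.89 in control, a difference of 0.40 ± 0.10 (adjusted p = 0.293). At the other end, Ndufb8 measured 11.94, 11.78 and 11.88 in YY1bKO against 11.84, 11.99 and 11.57 in control. The control arrays spanned the YY1bKO arrays, and the difference was 0.06 ± 0.13 (adjusted p = 0.898). Ndufb1 differed by 0.07, with overlapping groups. Ndufb11 differed by 0.12 with groups apart, and its other probe sets gave 0.04 and 0.26 (unadjusted p = 0.0196 for the larger).

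Ndufa4 carries a complex I name but is now assigned to complex IV, cytochrome c oxidase. It measured 12.61, 12.47 and 12.53 in YY1bKO against 12.33, 12.16 and 12.12 in control. The difference of 0.33 ± 0.10 (SE; adjusted p = 0.338) fell inside the range of the subunits. Leaving it out gave a median of 0.31 over 33 subunits, as over all 34.

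**Figure D3:**
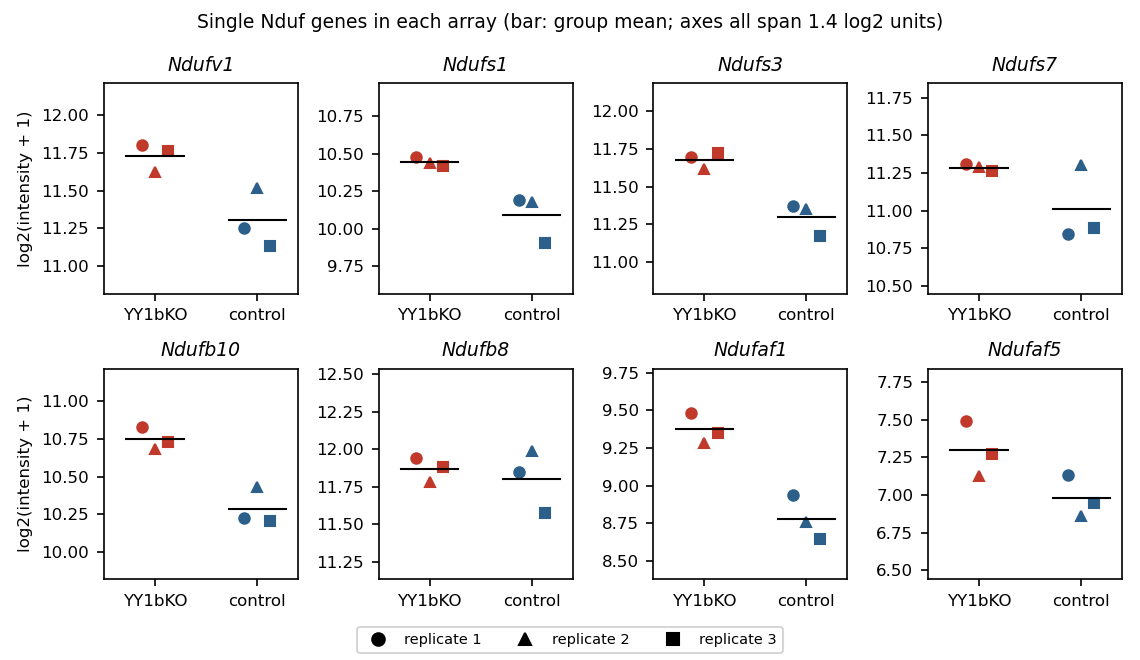
Log2(intensity + 1) of 8 Nduf genes in each array, YY1bKO left and control right, with replicates 1 to 3 as circle, triangle and square and the group mean as a bar. The groups are apart for Ndufv1, Ndufs1, Ndufs3, Ndufb10 and Ndufaf1 and overlap for Ndufs7, Ndufb8 and Ndufaf5.

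The 5 assembly factors were higher by a median of 0.34, against 0.31 for the 34 subunits. At an unadjusted p under 0.05, 4 of 5 assembly factors and 22 of 34 subunits were higher, beside 8.45% of all genes. The difference between the 2 classes was not tested. Ndufaf1, which acts in the intermediate that forms the membrane arm, had the largest difference of all 39 genes. It measured 9.48, 9.29 and 9.35 in YY1bKO against 8.94, 8.75 and 8.65 in control, or 663 ± 45.8 against 440 ± 45.8 intensity units (SD, n = 3 each). This was 1.51-fold higher in YY1bKO (0.59 ± 0.11 SE, 95% confidence interval 0.32 to 0.87, adjusted p = 0.184). Every YY1bKO array lay above every control array, and the exact permutation p was 0.1, the smallest possible.

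Ndufaf7, a methyltransferase that acts in early assembly, measured 8.64, 8.32 and 8.46 in YY1bKO against 8.20, 7.98 and 7.99 in control, a difference of 0.41 ± 0.12 (SE; adjusted p = 0.333). Ndufaf3 and Ndufaf4 act together in early assembly around the Q module. Ndufaf3 measured 9.05, 8.79 and 8.98 in YY1bKO against 8.64, 8.58 and 8.60 in control, a difference of 0.34 ± 0.10 (adjusted p = 0.339). Ndufaf4 measured 9.56, 9.41 and 9.27 in YY1bKO against 9.24, 9.07 and 9.03 in control, a difference of 0.30 ± 0.11 (adjusted p = 0.451). The groups were apart for all of these. Ndufaf5, a hydroxylase of Ndufs7, measured 7.50, 7.13 and 7.27 in YY1bKO against 7.13, 6.86 and 6.95 in control. Here the lowest YY1bKO array fell just below the highest control array, and the difference was 0.32 ± 0.13 (adjusted p = 0.486).

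Assembly factors of complex I that carry other names were more mixed. Of 11 measured from a list of 14, 8 were higher and 3 lower, with a median of 0.15. At an unadjusted p under 0.05, 3 were higher, where 8.45% of all genes were. These were Tmem186 (0.43) and Ecsit (0.40), both partners of Ndufaf1 in the membrane arm intermediate, and Foxred1 (0.39), which acts late in assembly. Acad9, a further partner, had a lower mean in YY1bKO (-0.84, unadjusted p = 0.215), with 9.34, 9.17 and 9.37 in YY1bKO against 9.67, 11.58 and 9.15 in control. Control replicate 2 was far above the other control arrays. ND5, a complex I subunit encoded by mitochondrial DNA, was chosen after its values were seen and differed by 0.31 ± 0.16 (SE; adjusted p = 0.589), with overlapping groups.

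The 74 probe sets of the 39 genes gave a second look at the same RNA, since 20 genes had several. Of the 35 probe sets not chosen, 33 were higher in YY1bKO, 23 of them at an unadjusted p under 0.05. The share at that level over all probe sets was not counted. With 1 probe set per gene, 8.45% of all genes were higher at that level. The exceptions were dim probe sets of Ndufb9 (-0.10) and Ndufa12 (-0.22), at mean levels of 5.70 and 5.35 on the log2 scale, below the median of each array. Other dim probe sets varied. Those of Ndufa10 (0.67 at a mean level of 6.41) and Ndufab1 (0.45 at 6.52) had larger differences. A dim one of Ndufs4 (0.06 at 6.37) and the chosen one of Ndufb1 (0.07 at 6.82) differed little. Of the chosen probe sets, 2 fell below the highest array median in at least some arrays, those of Ndufb1 and Ndufaf5. The chosen probe sets of Ndufb9 and Ndufa12 stood at 12.23 and 12.21. For Ndufs8 the 6 probe sets ran from 0.07 to 0.42, and for Ndufa7 the 5 ran from 0.34 to 0.42. By the array's naming, 9 chosen probe sets could also bind other transcripts (4 end in _x_at and 5 in _s_at), among them that of Ndufa12.

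**Figure D4:**
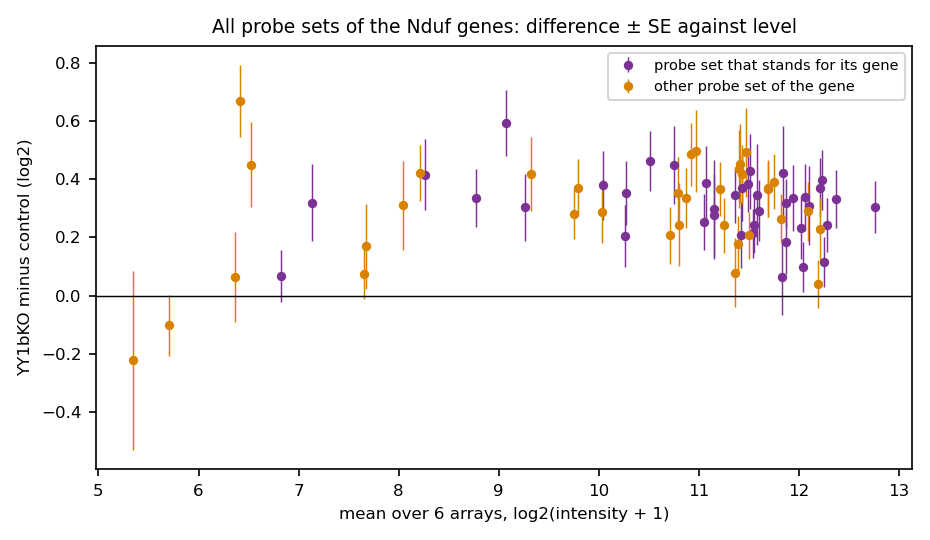
Difference between YY1bKO and control (vertical axis, log2, bars ± SE) against the mean level over 6 arrays (horizontal axis, log2(intensity + 1)) for the 74 probe sets of the Nduf genes. Of the 74, 72 lie above 0, and the 2 below are among the dimmest.

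Averaged over genes, each centred on its mean over the 6 arrays, the 34 subunits stood at 0.20, 0.08 and 0.16 in YY1bKO replicates 1 to 3 against -0.09, -0.10 and -0.26 in control replicates 1 to 3. The assembly factors stood at 0.34, 0.08 and 0.16 in YY1bKO against -0.07, -0.26 and -0.26 in control. Within a group, too, most genes ranked the arrays alike. YY1bKO replicate 1 was the highest of its group for 28 of the 39 genes and YY1bKO replicate 2 the lowest for 32, while control replicate 1 was the highest of its group for 25 and control replicate 3 the lowest for 28. Without YY1bKO replicate 1, the count at an unadjusted p under 0.05 was 8 of 39, where 5.02% of all genes were higher at that level. It was 13 without YY1bKO replicate 3 (4.55% of all genes) and 16 without control replicate 3 (7.29% of all genes). In these settings 39, 39 and 38 genes had a higher mean in YY1bKO, and Ndufb8 was the exception.

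The other respiratory complexes were compared by counts and medians only. Higher means in YY1bKO were found for 4 of 4 complex II genes (median 0.34), 9 of 9 of complex III (0.30), 9 of 10 of complex IV (0.25) and 13 of 15 of complex V (0.19). Sdhb of complex II (0.52) and Uqcrq of complex III (0.77) led these lists, each with adjusted p = 0.147. Of 11 regulators of respiratory genes, 3 were higher and 8, Yy1 itself among them, were lower (median -0.08). At an unadjusted p under 0.05, 2 were higher, where 8.45% of all genes were. These were Ppargc1a (0.92), the coactivator of mitochondrial biogenesis, and Tfb2m (0.21), a mitochondrial transcription factor. Ppargc1a is also on the list of thermogenic adipocyte markers below. Nrf1 (-0.30) and Esrra (-0.04), which encode factors that bind respiratory promoters, had lower means in YY1bKO, with overlapping groups.

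**Figure D5:**
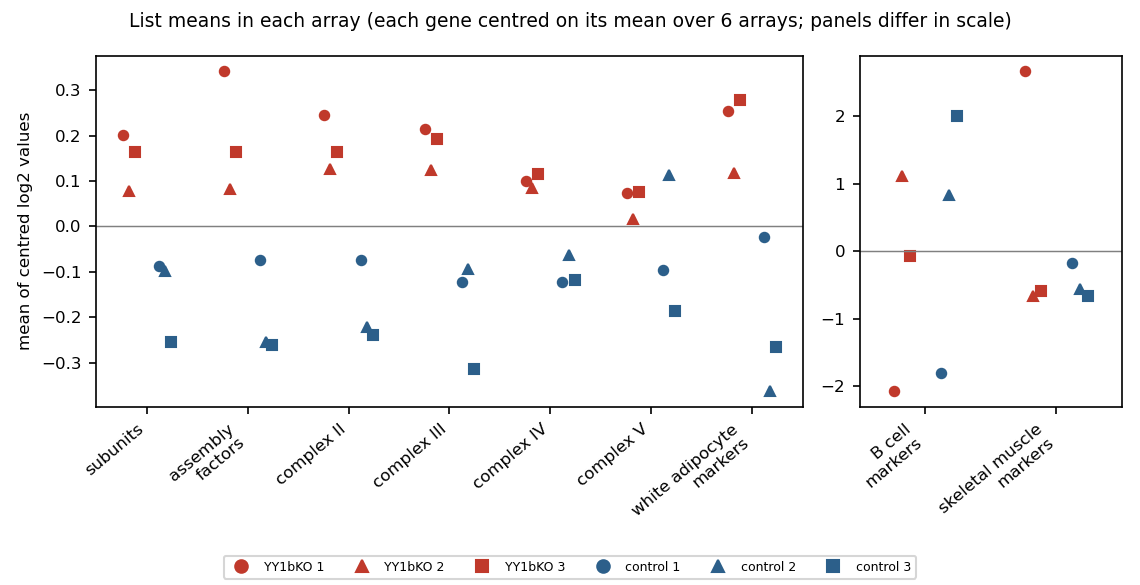
Mean of gene lists in each array, each gene centred on its mean over the 6 arrays (vertical axes, log2, different scales in the 2 panels), YY1bKO red and left of control in blue, replicates 1 to 3 as circle, triangle and square. Subunits, assembly factors, complexes II to IV and white adipocyte markers are higher in each YY1bKO array than in each control array, whereas complex V and the B cell and skeletal muscle markers overlap.

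In whole tissue, a change in the number of cells of a type and a change in RNA per cell cannot be told apart. Markers of the cells in this depot are therefore given beside these values. Thermogenic adipocyte markers were higher for 8 of 8 genes (median 1.86), and their list mean was 1.15 to 1.30 in YY1bKO against -1.495 to -0.94 in control. The groups were apart for 6 of these genes and overlapped for Cidea (1.23) and Dio2 (0.07). Cidea measured 11.01 in control replicate 2, above every YY1bKO array. Genes listed as white adipocyte markers were higher for 8 of 9 (median 0.33). Their list mean was 0.12 to 0.28 in YY1bKO against -0.36 to -0.02 in control. Of these genes, 4 had an unadjusted p under 0.05, where 8.45% of all genes were higher at that level. Whether they are specific to white rather than thermogenic adipocytes was not tested, so the list mean is no count of white adipocytes. Within this list the genes varied. Pnpla2 (1.00), Nnat (0.95), Lipe (0.83) and Agt (0.83) had groups apart, while the groups overlapped for Retn (0.33), Adipoq (0.12), Fabp4 (0.09), Lpl (0.08) and Lep (-0.31). The white adipocyte list mean was also fitted as a covariate, chosen after seeing the data. This mean was itself apart between the genotypes, so the fit cannot separate the list from genotype. With it, 30 of the 39 Nduf genes had a higher mean in YY1bKO. The medians were then 0.16 for subunits and 0.12 for assembly factors, and Ndufa6, Ndufb10 and Ndufs7 (3 of 39) had an unadjusted p under 0.05, where 3.18% of all genes were higher at that level.

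B cell markers had lower means in YY1bKO for 7 of 7 genes (median -0.63), with list means of -2.07 to 1.11 in YY1bKO against -1.81 to 2.01 in control. With that mean as a covariate, 39 of 39 Nduf genes stayed higher and the medians were 0.28 for subunits and 0.31 for assembly factors. Skeletal muscle markers, from a tissue rich in complex I, were higher for 10 of 10 genes. Their list mean was 2.66 in YY1bKO replicate 1, against -0.67 to -0.59 in the other YY1bKO arrays and -0.67 to -0.18 in control. Only Acta1 of this list had groups apart. It measured 10.62, 9.04 and 10.62 in YY1bKO against 8.29, 7.51 and 8.22 in control, a difference of 2.08. Epithelial markers had a higher mean in YY1bKO for 2 of 10 genes (Csn3 and Krt19) and a lower one for 8 (median -1.02). Their list mean was -0.75 to 0.04 in YY1bKO, against 2.82 in control replicate 2 and -0.81 to -0.80 in the other control arrays. Csn3 (3.86) and Krt19 (4.36) were not high in control replicate 2. Macrophage markers were higher for 3 of 7 genes (median -0.04), with list means of -0.08 to 0.08 in YY1bKO against -0.44 to 0.31 in control. None of these markers was listed at 0. Without YY1bKO replicate 1 the subunit median was 0.27 and that of the assembly factors 0.28. The count at an unadjusted p under 0.05 was then 8 of 39, against 26 with all arrays, and 5.02% of all genes were higher at that level. Leaving out an array cannot separate its muscle content from its other features. The part of the adipocyte, muscle and epithelial markers in the Nduf differences was not tested.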

How the data were processed

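Per the labels' protocols, Trizol-extracted total RNA was turned into biotin-labelled cRNA for an Affymetrix array. The authors deposited 1 intensity per probe set, made with RMA per the submitters' processing notes. Its version was not given in the sources used. Values from 5.4 to 25730.1 showed that the scale was linear. RMA includes a quantile step that makes arrays alike and can remove a change of all RNA at once, although the deposited medians still differed slightly. Of 22690 probe sets, 20393 carried a single gene symbol in the platform annotation, and 8 that named an Nduf gene with another gene were left out.

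Values were transformed as log2(intensity + 1) and fitted by lmFit and eBayes of limma 3.58.1 (R 4.3.3; 6.11 degrees of freedom), without a filter on dim genes. P-values were 2-sided and adjusted by Benjamini-Hochberg over 12394 genes. The scripts were tested on simulated data. The precision is limited by 3 arrays per group: standard errors of the 39 members were 0.082 to 0.17 on the log2 scale.

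Members and lists were chosen with earlier results of these data known. Genes given with values per array were the core subunits, the 6 other subunits with the smallest p, Ndufa4, all Ndufaf genes, members lower in YY1bKO and members whose probe sets disagreed in sign. Ndufb8 was added after its values were seen. Of other lists, up to 4 genes with the smallest p could be named. Acad9, Nrf1, Esrra, Cidea, Dio2, Csn3, Krt19 and Ndufb11 with its probe sets were named after their values were seen. So were the white adipocyte genes beyond those 4.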

Additional observations from a re-analysis of the deposited data

How the results depend on the processing

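In 23 alternative settings no Nduf gene passed the adjusted threshold, and at least 35 of the members measured were higher in YY1bKO, except with the white adipocyte marker mean as a covariate (30 of 39). The number of all genes that passed was 4. It was 9 with log2(intensity + 16), 8 among genes at or above the 50th percentile of mean level, 12 with robust eBayes, 9 with array weights and 1 with the replicate block. Leaving out 1 array gave 1 to 5. Leaving out control replicate 3 with YY1bKO replicate 1, or control replicate 2 with YY1bKO replicate 1, gave 1 each. The count of Nduf genes at an unadjusted p under 0.05 was 26. Leaving out 1 array gave 8 to 24, and in those settings 4.55% to 13.2% of all genes were higher at that level. Leaving out control replicate 3 with YY1bKO replicate 1 gave 2, Ndufaf1 and Ndufb10 (4.2% of all genes). Leaving out control replicate 2 with YY1bKO replicate 1 gave 9 (3.71% of all genes). With the white adipocyte covariate the count was 3, with 3.18% of all genes higher at that level and 0 genes passing limma's adjusted threshold. The medians were then 0.16 for subunits and 0.12 for assembly factors, and Ndufaf5 turned to -0.090. The white adipocyte list mean was itself apart between the genotypes, so this fit cannot separate the list from genotype. Taking each gene's lowest probe set gave -0.10 for Ndufb9 and -0.22 for Ndufa12, and Ndufa12 was also -0.22 without probe sets ending in _x_at or _s_at. The cause of these shifts was not tested beyond what each setting leaves out. The 2 marker covariates and the setting without _x_at and _s_at probe sets were chosen after seeing the data.

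Both groups are numbered 1 to 3. Deviations of same-numbered arrays from their group means correlated across genes at 0.607, 0.0974 and 0.0307. Those of differently numbered arrays ran from -0.645 (YY1bKO replicate 2 with control replicate 1) to 0.598 (YY1bKO replicate 2 with control replicate 3). The numbers were therefore not taken as pairs. With the replicate block, 39 of 39 Nduf genes stayed higher. In that setting 21 of them had an unadjusted p under 0.05, where 8.61% of all genes were higher at that level. Arrays give no read depth, and the lowest probe sets of Ndufa12 and Ndufb9, at mean log2 levels of 5.35 and 5.70, lie below each array's median.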
